A study of Mus musculus with 6 samples.

Results

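DNA replication and S phase genes were examined in 4T1-T cells sorted by their uptake of acetylated low-density lipoprotein (acLDL). The set was a list of 50 named genes that act at origins, at the replication fork, in nucleotide supply and in the entry into S phase, and all 50 were among the 12572 protein-coding genes that passed the filter on low counts. 4T1-T is a sub-clone of 4T1, a mouse mammary carcinoma line, and is classed in the study as proficient in vasculogenic mimicry (VM), the forming of vessel-like channels by tumor cells, so every library derived from 1 sub-clone. Cultures were starved of serum overnight in medium with 0.3% BSA, given fluorescent acLDL at 10 ug/mL for 4 h, washed and returned to complete growth medium for 1 h before sorting. The acLDL-high population was the brightest 25% of cells and the acLDL-low population the dimmest 25%, and no library of cells without acLDL was analysed here. The experiment was carried out on 3 occasions, each giving 1 acLDL-low and 1 acLDL-high library, and the replicate number in the labels was taken as the occasion.

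Cells copy their DNA in S phase after origins have been licensed in G1, when the origin recognition complex, CDC6 and CDT1 load the MCM helicase. CDC45 and the GINS complex then activate the helicase, and polymerases held by the PCNA clamp copy both strands. Transcription of many of these genes is driven by E2F factors and rises at the passage from G1 to S, whereas the genes of mitosis reach their peak later, so the transcripts of both programs are commonly used to describe how the cells of a culture are spread over the cycle.

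Library totals ranged from 70263372 to 94216786 counts, and protein-coding genes took at least 98.37% of them. Values are given as CPM, the count scaled to the TMM-adjusted library size. All 6 epithelial markers examined (among them Epcam, Krt8 and Cdh1) were above 1 CPM in every library, with summed levels of 2927 to 4406 CPM in acLDL-low and 3281 to 4609 CPM in acLDL-high cells. Of 8 leukocyte markers, 6 stayed below 1 CPM, and 2 of those were at 0 in every library. The summed level of these 8 was 10.86 to 13.63 CPM in acLDL-low and 12.89 to 16.25 CPM in acLDL-high cells, most of it Cd14. By edgeR with Benjamini-Hochberg adjustment, Cd14 (log2 fold change 0.32, adjusted p = 0.0246) and the epithelial marker Cldn4 (0.53, adjusted p = 0.000832) were higher in the acLDL-high library of every pair, and their part in the results was not tested. Of 6 endothelial markers, 5 stayed below 1 CPM, 1 of them at 0 (sums of 68.54 to 100.3 and 72.34 to 102.9 CPM, nearly all Eng). So did 4 of 6 fibroblast markers, 2 of them at 0 (sums of 28.94 to 41.08 and 29.65 to 43.33 CPM). Nearly all of the fibroblast sum was Pdgfra, at 28.1 to 42.8 CPM over the 6 libraries. In bulk RNA, fewer cells in S phase and less RNA of these genes per cell cannot be told apart.

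The replication genes were transcribed over a wide range of levels. Per kilobase of exons, the highest mean levels were those of Pcna, the sliding clamp, at 66.9 CPM, Mcm5 and Mcm3, helicase subunits, at 66.1 and 64.1 CPM, and Rrm2, the small subunit of ribonucleotide reductase, at 63.7 CPM. The lowest were Gins2 and Gins3 of the GINS complex at 5.46 and 4.79 CPM and Ccne1, cyclin E1, at 3.26 CPM per kilobase. Exons of 18 of the 50 genes overlapped another annotated gene, 16 of them a gene on the opposite strand and 3 a gene on the same strand. For these, which include Ccne2, Cdc45, Lig1, Pole and Rpa1, the overlap could have altered the count. The strand setting of the counting is not given in the sources used here. For an overlap on the same strand, as in Rpa1, no strand setting would separate the reads.

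The promoters were searched for letters that E2F factors are known to bind. RefSeq windows from 250 bases before to 50 bases after a transcription start (GRCm38.p6) were found for 42 of the 50 genes, and 16 of the 42 (38.1%) held TTTCCCGC, TTTCGCGC, TTTGCCGC or TTTGGCGC on either strand. Among all 27025 genes with a window, 704 (2.6%) did. These 27025, which stand for all genes in this paragraph, were not limited to the genes tested for expression, as the replication genes were. Of 21 G2 and mitosis genes with a window, 1 (4.76%) held these letters, while 16 (76.2%) held TTTGAA, the core of the CHR element of mitotic promoters, which was in 5 of the 42 replication genes (11.9%) and in 20.2% of all genes. The letters CCAAT were in 61.9% of the replication genes, 85.7% of the G2 and mitosis genes and 41.1% of all genes. Sequences are shown for 5 replication genes to let the E2F letters be seen in their surroundings, with the matching letters in capitals and each strand read in the direction of its gene. Those of Mcm5 and Mcm6 each hold 2 overlapping matches, 1 on either strand.
Cdc6, licensing factor, chr11:98907977-98908056, plus strand: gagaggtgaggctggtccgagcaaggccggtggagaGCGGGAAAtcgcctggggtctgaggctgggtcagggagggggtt
Mcm5, helicase subunit, chr8:75109320-75109399, plus strand: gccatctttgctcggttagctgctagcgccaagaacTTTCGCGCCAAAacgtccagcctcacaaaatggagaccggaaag
Mcm6, helicase subunit, chr1:128359772-128359851, minus strand: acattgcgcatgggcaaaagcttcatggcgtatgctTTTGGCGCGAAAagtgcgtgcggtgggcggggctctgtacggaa
Pola1, catalytic subunit of the priming polymerase, chrX:93632250-93632329, minus strand: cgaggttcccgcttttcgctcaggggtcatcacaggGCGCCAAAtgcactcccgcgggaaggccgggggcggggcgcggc
Uhrf1, reader of hemimethylated DNA, chr17:56304092-56304171, plus strand: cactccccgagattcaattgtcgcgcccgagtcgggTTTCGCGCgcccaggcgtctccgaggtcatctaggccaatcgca
A match describes letters and not occupancy, and no binding was measured here. Only exact letters within the windows were searched, so a gene without a match is not shown to lack control by E2F factors. The Cdc6 and Uhrf1 stretches lie within the GENCODE M21 bounds of the gene, and those of Mcm5, Mcm6 and Pola1 lie upstream of them.

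Sorting by acLDL uptake separated the replication genes very little. With edgeR's quasi-likelihood test, the replicate number as a block and Benjamini-Hochberg adjustment, 1 member of the 50 passed an adjusted p of 0.05, against 4.75% of all genes tested. That gene, Cdt1, was lower in acLDL-high cells, as were 1.32% of all genes, and 0 of the 50 were higher, as were 3.43% of all genes. These counts changed with the pairs included. Without replicate 1, 7 of the 50 were called, all lower, beside 209 called lower of 12316 genes tested. Without replicate 2, 7 were called, all higher, beside 602 called higher of 12478 genes tested. Without replicate 3, 0 were called, beside 126 over all genes. At an unadjusted p under 0.05 there were 10 of the 50, beside a background of 19.4%. The median log2 fold change of the 50 genes was 0.0033, beside 0.0017 for all genes, with a range from -0.19 to 0.30 and standard errors of 0.04 to 0.11. The median size of the log2 fold change, sign aside, was 0.057 for the replication genes and 0.073 for all genes. The 95% confidence intervals of single genes reached at most from -0.31 to 0.54 on the log2 scale.

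Cdt1, which loads the helicase to license origins and is destroyed once S phase begins, lies on chromosome 8 from 122568015 to 122573554 (ENSMUSG00000006585, GRCm38). On occasions 1, 2 and 3, in that order here and in all lists of 3 values that follow, it gave 80.2, 189 and 84.9 CPM in the low-uptake libraries and 77.7, 159 and 70.6 CPM in the high-uptake ones. Each acLDL-high library was below its partner, but the populations overlapped because both libraries of occasion 2 were far above the others. Averaged over the 3 libraries of a population it stood at 118 ± 61.7 CPM when uptake was low and 102 ± 49.0 CPM when it was high (SD, n = 3). The fitted log2 fold change was -0.19 (standard error, SE, 0.05, 95% confidence interval -0.30 to -0.08, adjusted p = 0.0458 by edgeR with Benjamini-Hochberg adjustment). With all genes of the count table in the test the adjusted p was 0.0582. Without replicate 2 it was 0.0807, without replicate 3 it was 0.311, and without the replicate block it was 1. Other settings gave lower values: 0.00212 without replicate 1 (log2 fold change -0.26) and 0.0164 without the low-count filter, both by edgeR. By DESeq2 with the replicate block it was 0.0379.

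The rest of the licensing group did not pass the test over all 3 pairs, although without replicate 1 Cdc6 (-0.24, adjusted p = 0.0247 by edgeR) and Mcm2 (-0.22, adjusted p = 0.0145) did, both lower. Mcm5 (chromosome 8, 75109569 to 75128439), the most counted member, gave 188, 457 and 162 CPM in the low-uptake libraries and 214, 405 and 158 CPM in the high-uptake ones, log2 fold change -0.01 (SE 0.06, adjusted p = 0.957 by edgeR). Mcm3 (chromosome 1, 20802968 to 20820312) gave 173, 427 and 136 CPM and, with high uptake, 200, 373 and 133 CPM, also with -0.01 (SE 0.06, adjusted p = 0.950 by edgeR). Cdc6 (chromosome 11, 98907801 to 98923940), which recruits the helicase to origins together with CDT1, gave 36.3, 82.5 and 20.01 CPM and, with high uptake, 44.7, 63.6 and 19.0 CPM, with -0.06 (SE 0.09, adjusted p = 0.796 by edgeR). In all of these the acLDL-high library was the higher one on occasion 1 and the lower one on occasions 2 and 3. Across the 12 genes of origin recognition and licensing the median log2 fold change was -0.04, with medians of 0.12, -0.22 and -0.04 in pairs 1, 2 and 3.

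Genes of helicase activation and of DNA synthesis also lay close to 0. Cdc45, a helicase subunit, gave 39.2, 73.5 and 42.2 CPM in the low-uptake libraries and 47.5, 73.3 and 45.3 CPM in the high-uptake ones, log2 fold change 0.12 (SE 0.05, adjusted p = 0.234 by edgeR). Gins2, of the GINS complex that completes the active helicase, gave 19.4, 30.3 and 21.4 CPM and, with high uptake, 19.9, 24.3 and 18.9 CPM, log2 fold change -0.16 (SE 0.07, adjusted p = 0.217 by edgeR). Its partners Gins1 (6.98, 13.3 and 4.69 CPM, and 7.08, 12.8 and 5.54 CPM with high uptake) and Gins3 (12.9, 17.9 and 9.61 CPM, and 12.7, 15.5 and 9.30 CPM with high uptake) had log2 fold changes of 0.06 and -0.10. The members of this complex thus had fold changes of either sign, and their populations overlapped. Leaving out 1 pair changed the call of Gins2, which was lower without replicate 1 (-0.25, adjusted p = 0.0361 by edgeR), and of Cdc45, which was higher without replicate 2 (0.19, adjusted p = 0.0486). Among the 9 polymerase and primase genes the median log2 fold change was 0.02. Pole, the catalytic subunit of the leading-strand polymerase, gave 81.2, 140 and 66.5 CPM and, with high uptake, 86.9, 137 and 73.8 CPM, and Prim2, the large primase subunit, gave 27.0, 48.7 and 30.01 CPM and, with high uptake, 30.4, 50.2 and 33.6 CPM. Prim2 was higher in the acLDL-high library of every pair, log2 fold change 0.12 (SE 0.05, adjusted p = 0.191 by edgeR).

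The clamp, its loader and the genes of the lagging strand did not pass the test either. Pcna (chromosome 2, 132249162 to 132253314) gave 132, 245 and 111 CPM in the low-uptake libraries and 151, 209 and 116 CPM in the high-uptake ones, with a log2 fold change of 0.0070 (95% confidence interval -0.13 to 0.15, adjusted p = 0.969 by edgeR). Rfc1, the large subunit of the clamp loader, gave 116, 183 and 104 CPM and, with high uptake, 118, 176 and 102 CPM, and the small subunit Rfc4 11.7, 16.6 and 10.5 CPM and, with high uptake, 12.1, 16.6 and 12.3 CPM. Neither separated the populations, and the median log2 fold change of these 6 genes was 0.01. Of the single-strand binding protein, the large subunit Rpa1 gave 117, 203 and 94.2 CPM and, with high uptake, 123, 197 and 96.2 CPM, and the small subunit Rpa3 20.9, 27.4 and 13.03 CPM and, with high uptake, 22.5, 25.9 and 15.2 CPM. Lig1, the ligase that joins Okazaki fragments, gave 74.6, 181 and 70.2 CPM and, with high uptake, 91.5, 167 and 70.1 CPM. Log2 fold changes for Rpa1, Rpa3 and Lig1 came to 0.02, 0.08 and 0.06, none of them past the threshold.

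Nucleotide supply had the highest median of the role groups, 0.12 over 5 genes, with 0 past the threshold. Rrm2 (chromosome 12, 24708241 to 24714146), whose product makes deoxyribonucleotides and whose level follows S phase, gave 132, 282 and 90.1 CPM in the low-uptake libraries and 177, 273 and 105 CPM in the high-uptake ones, log2 fold change 0.20 (SE 0.07, 95% confidence interval 0.05 to 0.35, adjusted p = 0.127 by edgeR). Its partner Rrm1, the large subunit, gave 178, 321 and 136 CPM and, with high uptake, 195, 336 and 153 CPM, log2 fold change 0.12 (SE 0.04, adjusted p = 0.128 by edgeR). Rrm1 was higher in the acLDL-high library of every pair and Rrm2 in pairs 1 and 3. Tyms, thymidylate synthase, had 0.10, Dut, which removes dUTP, 0.12, and Tk1, the salvage kinase of thymidine, -0.0034. The value of Rrm2 depended on the pairs included. It was 0.084 without replicate 1, 0.32 without replicate 2 and 0.19 without replicate 3, with adjusted p of 0.497, 8.88e-07 and 0.412 by edgeR. Without replicate 2 the fit rests on pairs 1 and 3 alone, where Rrm2 differed by 0.43 and 0.22. Because edgeR draws its estimate of spread partly from other genes, this small adjusted p does not measure the spread of Rrm2 alone. Without replicate 2, Dut also passed the threshold.

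The genes that govern the entry into S phase differed in sign. Ccne1 (chromosome 7, 38097984 to 38107534), an activator of CDK2, gave 5.83, 12.2 and 5.57 CPM in the low-uptake libraries and 9.41, 12.7 and 6.36 CPM in the high-uptake ones, higher in the acLDL-high library of every pair. Its log2 fold change of 0.30 was the highest of the 50 genes (SE 0.11, 95% confidence interval 0.07 to 0.54, adjusted p = 0.144 by edgeR). This value was 0.12 without replicate 1, 0.45 without replicate 2 and 0.36 without replicate 3, with adjusted p of 0.609, 0.00300 and 0.319 by edgeR. Its paralog Ccne2 (chromosome 4, 11191351 to 11204779) gave 30.9, 36.9 and 15.9 CPM and, with high uptake, 37.8, 27.6 and 14.2 CPM, log2 fold change -0.09 (SE 0.10, adjusted p = 0.665 by edgeR). E2f1 (chromosome 2, 154559407 to 154569892), an activating E2F factor, gave 34.4, 57.9 and 32.2 CPM and, with high uptake, 41.7, 44.0 and 31.2 CPM, with -0.06 (SE 0.09, adjusted p = 0.786 by edgeR). Ccne2 and E2f1 were higher in the acLDL-high library of pair 1 and lower in that of pairs 2 and 3, and without replicate 1 they passed the threshold as lower (-0.30 and -0.22, adjusted p = 0.0131 and 0.0462 by edgeR). In the chromatin and checkpoint group, Uhrf1, which brings maintenance methylation to new DNA, gave 136, 292 and 109 CPM and, with high uptake, 156, 239 and 103 CPM, and Clspn, the checkpoint mediator claspin, 46.3, 94.96 and 31.5 CPM and, with high uptake, 53.5, 84.7 and 35.7 CPM. Uhrf1 and Clspn had log2 fold changes of -0.06 and 0.07, and the median of this group of 5 was -0.05. Clspn passed the threshold as higher without replicate 2 (0.19, adjusted p = 0.0449 by edgeR).

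**Figure D1:**
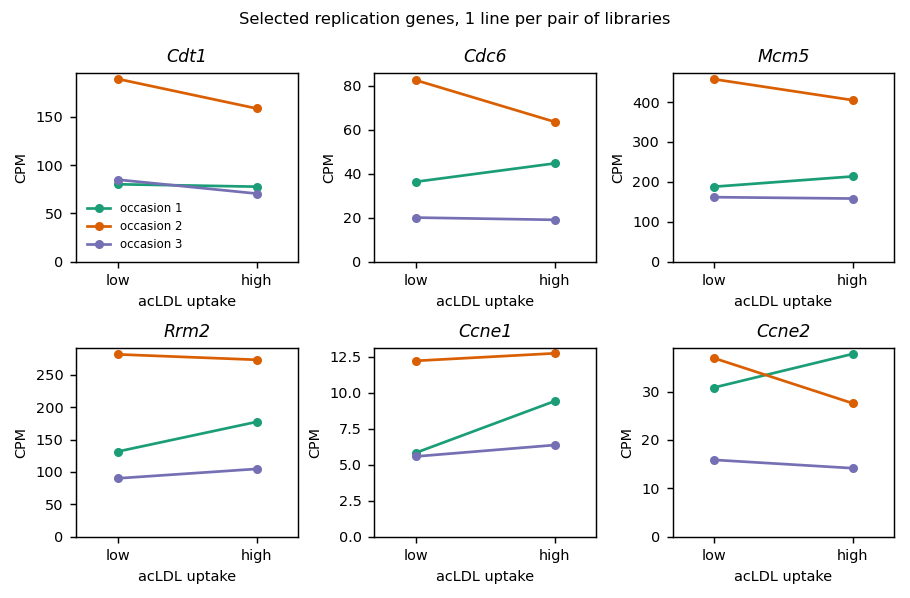
CPM (linear axes from 0) of 6 replication genes in acLDL-low and acLDL-high cells, with 1 line for each pair of libraries, colored by occasion. The lines of Cdt1 slope down in every pair and those of Ccne1 slope up in every pair, while for Cdc6, Mcm5 and Ccne2 the line of occasion 1 slopes up and those of occasions 2 and 3 slope down. For Rrm2 the lines of occasions 1 and 3 slope up.

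The small median over the 3 pairs was made of differences in opposite directions. In pair 1, 48 of the 50 genes were higher in acLDL-high cells, with a median difference of 0.13 in log2 CPM, in pair 2 only 4 were, with a median of -0.13, and in pair 3 it was 25, with a median of 0.01. Over all 12572 genes these medians were 0.02, -0.0075 and -0.00022, and 6885, 5954 and 6263 genes were higher in acLDL-high cells. Of the 50 genes, 44 (88%) were higher in pair 1 and lower in pair 2, as were 24.4% of all genes, and 0 were lower in pair 1 and higher in pair 2. The difference in pair 1 exceeded that in pair 2 in 50 of 50 genes, beside 55.4% of all genes, by a median of 0.28 (all genes, 0.02). Only 6 of the 50 had the same sign in all 3 pairs: Ccne1, Prim2, Rrm1 and Tyms were higher, and Cdt1 and Gins3 lower. Over all genes it was 5075 of 12572. Whether the pairs differed could not be tested, since each holds 1 library of each population.

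Single genes differed in how far they followed this pattern. The highest differences in pair 1 were those of Ccne1 at 0.69, Rrm2 at 0.43 and Cdc6 at 0.30, and the lowest were those of Cdt1 at -0.05, Gins3 at -0.02 and Rfc1 at 0.02. In pair 2, Rrm1 at 0.07, Ccne1 at 0.06 and Prim2 at 0.04 were the highest and Ccne2 at -0.42, E2f1 at -0.40 and Cdc6 at -0.38 the lowest. Cdc6 was thus among the 3 highest in one pair and among the 3 lowest in the next. In pair 3, Gins1, Rfc4 and Rpa3 led with 0.24, 0.24 and 0.22, and Cdt1, Gins2 and Ccne2 were lowest with -0.27, -0.18 and -0.16. Gins1, Rfc4 and Rpa3 were all at low levels, with means of 8.40, 13.3 and 20.8 CPM. So was Ccne1, which led in pair 1, with a mean of 8.69 CPM. By role, G1/S control had medians of 0.29, -0.40 and -0.04, and helicase activation of 0.03, -0.08 and 0.06.

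**Figure D2:**
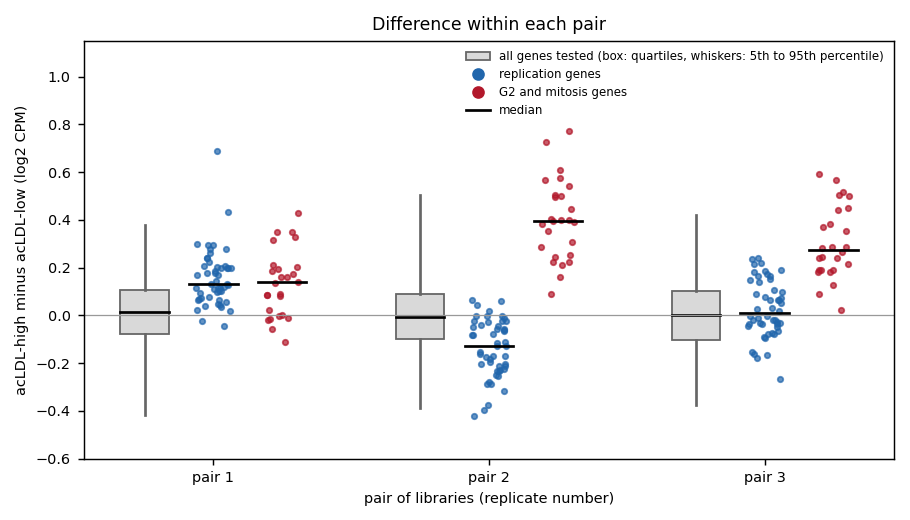
Difference in log2 CPM between the acLDL-high and the acLDL-low library of each pair, for all genes tested (box of quartiles, whiskers from the 5th to the 95th percentile), the 50 replication genes (blue points) and the 26 G2 and mitosis genes (red points), with black lines at the medians. The replication genes sit mostly above 0 in pair 1 (median 0.13), mostly below 0 in pair 2 (median -0.13) and around 0 in pair 3, and the G2 and mitosis genes have medians of 0.14, 0.40 and 0.27.

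Between occasions the same genes differed far more than between populations. With the quasi-likelihood F test of both replicate coefficients in the same edgeR model, 50 of 50 genes passed an adjusted p of 0.05 (Benjamini-Hochberg), against 78% of all genes. The 2 libraries of an occasion were its acLDL-low and its acLDL-high library. These p-values therefore do not measure the spread between repeated cultures within an occasion. Of the 50, 49 were called and highest on occasion 2, against 33.1% of all genes. In 49 of the 50, both libraries of occasion 2 were above the other 4, as they were in 30.9% of all genes. The exception to both counts was Ccne2, whose fitted level was highest on occasion 1. Occasion 3 was the lowest for 41 genes and occasion 1 for 9, beside 3974 and 3578 of the 12572 genes tested. The median log2 difference was 0.73 for occasion 2 against occasion 1, -0.28 for occasion 3 against occasion 1 and -0.99 for occasion 3 against occasion 2, while the medians of all genes were 0.0042, -0.010 and 0.0056.

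The largest difference between 2 occasions had a median of 0.99 on the log2 scale (1.99-fold) over the 50 genes, with a range from 0.40 to 1.90, beside a median of 0.45 (1.37-fold) over all genes. It exceeded 1 in 24 of the 50 (48%), as in 17.8% of all genes, and it was over 5 times the size of the log2 fold change between populations in 48 of the 50, beside 7157 of the 12572 genes tested. Opposite differences cancel in the log2 fold change between populations, an average over pairs, but not in the largest difference between occasions. Cdc6 had the largest difference between occasions, 1.90 (adjusted p = 4.93e-08 by edgeR with Benjamini-Hochberg adjustment), followed by Mcm3 at 1.57, Rrm2 at 1.52, Mcm5 at 1.43, Clspn at 1.42 and Gins1 at 1.35. The smallest were 0.40 for Gins4, 0.43 for Pold3, a subunit of the lagging-strand polymerase, and 0.46 for Gins2. E2f1, with 0.68, had the largest adjusted p of the 50, 0.00030, and its difference was 0.39 without acLDL-low replicate 2 and 0.92 without acLDL-high replicate 2. The GINS complex thus held both Gins1, among the 6 genes with the largest difference, and Gins4, the gene with the smallest.

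By role, the median of the largest difference was 1.21 for the licensing genes, of which 9 of 12 exceeded 1, 1.25 for Fen1 and Lig1 of Okazaki fragment processing, 1.19 for nucleotide supply and 1.12 for chromatin and checkpoint genes. It was 1.07 for the single-strand binding protein and for G1/S control, 0.88 for polymerases and primase, and 0.76 for both the clamp group and helicase activation. The 16 genes with E2F letters in their window had a median of 1.12 and the 26 without 0.99, and the ranges, 0.43 to 1.90 and 0.54 to 1.52, overlapped nearly throughout. For the 8 genes without a window the median was 0.88. The summed level of the 50 genes was 3323 and 3725 CPM in acLDL-low and acLDL-high cells of occasion 1, 6467 and 5851 CPM on occasion 2, and 2883 and 2906 CPM on occasion 3. Since the whole experiment was repeated on each occasion, the state of the cells and the handling of an occasion cannot be told apart.

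**Figure D3:**
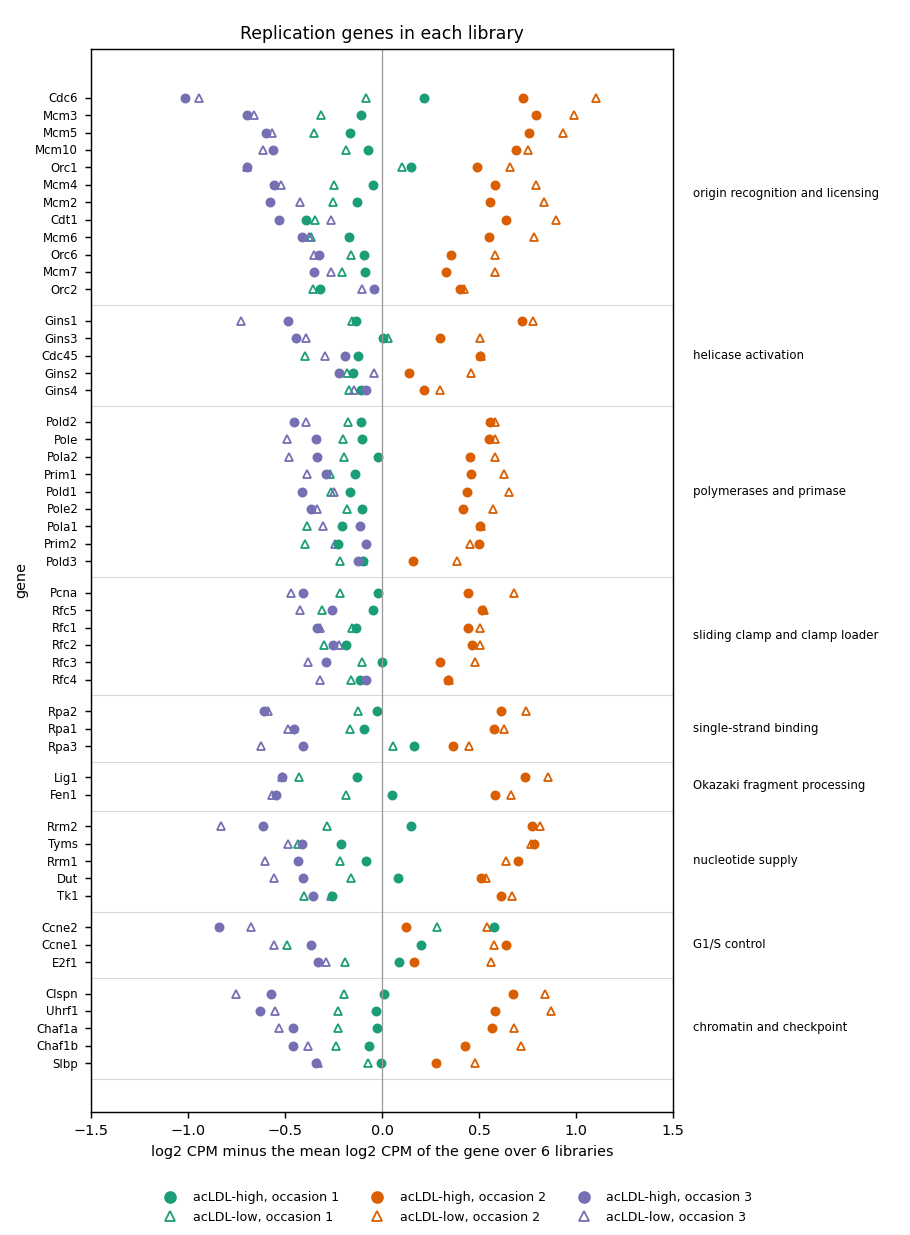
Log2 CPM of each replication gene in each of the 6 libraries, minus the mean log2 CPM of that gene, grouped by role. Filled circles are acLDL-high and open triangles acLDL-low libraries, and colors mark the occasions. The libraries of occasion 2 (orange) lie to the right for all genes but Ccne2, and those of occasion 3 (purple) lie farthest left for most.

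A wider list of 55 other replication genes, all tested, was examined in the same way. By edgeR with Benjamini-Hochberg adjustment, 2 were higher in acLDL-high cells, Dbf4, the activator of the CDC7 kinase that fires origins (log2 fold change 0.19, adjusted p = 0.0327), and Asf1b, a histone chaperone (0.17, adjusted p = 0.0361). One E2F gene, E2f2, was lower (-0.34, adjusted p = 0.00820), giving 18.3, 24.9 and 18.2 CPM in the low-uptake libraries and 15.5, 19.1 and 13.8 CPM in the high-uptake ones. Another 6 genes had an unadjusted p under 0.05, which makes 9 in all. Over all genes, 4.75% were called and 19.4% had an unadjusted p under 0.05, so the 3 and 9 of 55 were near the background. The median differences within pairs were 0.12, -0.08 and 0.02. Between occasions 53 of the 55 were called and 50 of these were highest on occasion 2, beside 78% and 33.1% of all genes. Dna2, the nuclease and helicase that trims Okazaki flaps, had the largest difference of the list, 2.05, giving 7.10, 25.0 and 6.10 CPM in the low-uptake libraries and 7.14, 22.6 and 5.36 CPM in the high-uptake ones. Pold4, the smallest subunit of the lagging-strand polymerase, was lowest on occasion 1 and highest on occasion 3, with 32.0, 72.0 and 95.1 CPM and, with high uptake, 33.9, 62.4 and 95.4 CPM. Exons of Pold4 overlap another annotated gene on the same strand, which could have altered its count. Dna2 and Pold4 were chosen after their values were seen.

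Genes of G2 and mitosis were listed beside them as the later part of the cycle. Of 26 such genes, 17 were higher in acLDL-high cells by edgeR with Benjamini-Hochberg adjustment and 0 were lower, with 24 at an unadjusted p under 0.05, beside 3.43%, 1.32% and 19.4% of all genes. The 6 with the largest log2 fold changes were Ube2c (0.56), Nusap1 (0.52), Ccnb1 (0.49), Top2a (0.45), Cdk1 (0.43) and Kif11 (0.38), with adjusted p from 0.000119 for Ube2c to 0.00254 for Nusap1. The median was 0.26, with medians of 0.14, 0.40 and 0.27 in pairs 1, 2 and 3, so that the difference in pair 1 exceeded that in pair 2 in 0 of 26 genes, beside 50 of 50 replication genes. Between occasions 26 of the 26 were called, beside 78% of all genes, and the G2 and mitosis genes had a median difference of 0.0048 for occasion 2 against occasion 1 and of -0.30 for occasion 3 against occasion 2, and their largest difference exceeded 1 in 0 genes. Their summed level was 4976, 4755 and 3970 CPM in acLDL-low and 5452, 6145 and 4881 CPM in acLDL-high cells of occasions 1, 2 and 3. No test compared these lists.

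**Figure D4:**
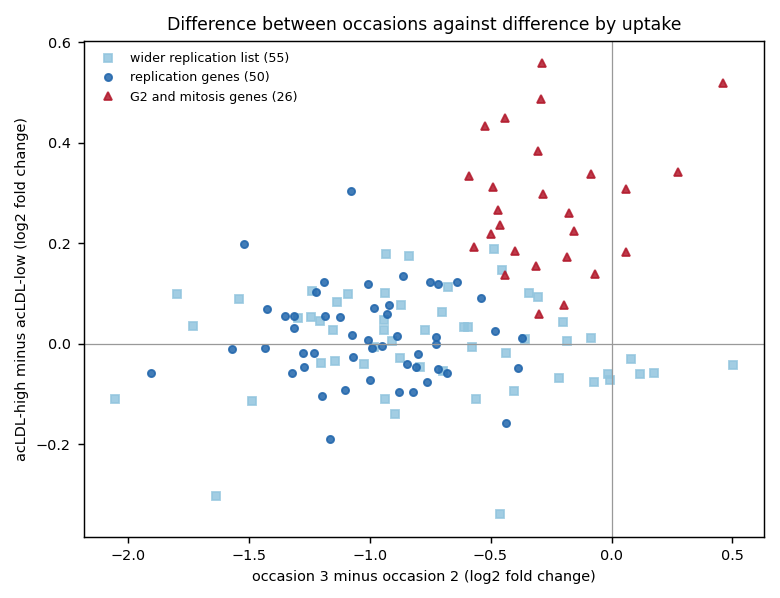
Log2 fold change of acLDL-high against acLDL-low cells (vertical axis) against the log2 difference of occasion 3 from occasion 2 (horizontal axis), both from the same edgeR model, for the 50 replication genes, the 55 genes of the wider list and the 26 G2 and mitosis genes. The replication genes spread from -1.90 to -0.37 along the horizontal axis and from -0.19 to 0.30 along the vertical one. The G2 and mitosis genes all lie above 0 on the vertical axis, with a median of 0.26.

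Genes of G1 and of cell cycle exit were also listed, and 16 of 18 were tested (Cdkn1c and Gas1 were not). Their median differences between occasions were -0.03 for occasion 2 against occasion 1 and -0.06 for occasion 3 against occasion 2. By edgeR with Benjamini-Hochberg adjustment, 2 of the 16 were higher in acLDL-high cells, Btg2, an antiproliferative gene (log2 fold change 0.50, adjusted p = 0.00816), and Cdkn2c, an inhibitor of CDK4 and CDK6 (0.23, adjusted p = 0.0287), and 1 was lower, Myc, a driver of growth and cell cycle entry (-0.33, adjusted p = 0.00115). The shares over all genes were 3.43% higher and 1.32% lower. These 3 genes were named after their values were seen.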

How the data were processed

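RNA-Seq of 6 libraries, 3 acLDL-low and 3 acLDL-high, was analysed. Libraries were made from polyA RNA with a stranded kit and read as pairs of 50 bp. Per the submitters' notes, the authors aligned reads to mm10 with STAR 2.5.2a, counted them with featureCounts 1.4.3-p1 and deposited raw counts per gene, without normalization. Annotation release and strand setting are not given in the sources used here. The authors' table of their DESeq2 1.20.0 comparison (means, fold changes, statistics, p-values) served only for gene symbols and for the choice of its 15973 protein-coding genes.

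Counts were filtered with filterByExpr, scaled by TMM and fitted with edgeR 4.0.16 (R 4.3.3) with population and replicate number as terms. Populations were compared by the quasi-likelihood test, and occasions by the F test of both replicate coefficients, with 2 libraries per occasion. P-values were adjusted by Benjamini-Hochberg over 12572 genes, with a threshold of 0.05. Differences within pairs are of log2 CPM with a prior count of 2. The block follows the study's methods and its repeated occasions. Deviations from the population mean correlated across genes at 0.795, 0.846 and 0.799 between libraries of the same number and at -0.557 to -0.0882 between others. Deviations within a population cancel out, so positive values within a number force negative ones among the others. No library repeated another. P-values measure the spread between these samples, which edgeR estimates for each gene partly from the other genes. Those between occasions rest on libraries of different populations, with no repeat of a population within an occasion. Precision is limited by the 3 libraries per population. Every replication gene had a mean of at least 7.87 CPM in acLDL-low cells, but depth may also limit precision for the genes with the lowest counts. The code was tested on simulated data.

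Members and lists were chosen with earlier results of these data known. Values in every library were given for members past the threshold, for the 3 highest and 3 lowest in each pair, for the 6 with the largest difference between occasions and for the most counted member of each role group, and for wider and mitotic lists at most 6 genes past the threshold were named. Positions and exon lengths are from GENCODE M21 (GRCm38), which holds 53274 of the 53379 gene IDs, and promoters from RefSeq (GRCm38.p6). Alternatives were no block, DESeq2 1.42.0 and its size factors, other count filters, all genes of the table and leaving out replicates.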

Additional observations from a re-analysis of the deposited data

Results flagged for a closer look

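The replication genes moved in opposite directions in the first and second pair of libraries. Of the 50 genes, 44 had their higher level with high uptake in pair 1 and with low uptake in pair 2, beside 24.4% of all genes. The 50 genes were read from the same libraries, so they are not separate replicates of this pattern. This difference between pairs was not tested, since each pair holds 1 library of each population.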

How the results depend on the processing

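The comparison of populations rests on the replicate block: without it, edgeR called 0 of 12329 genes (0 higher, 0 lower; 45 at an unadjusted p under 0.05) and DESeq2 called 0 (71), in both cases 0 replication genes (0 at an unadjusted p under 0.05), and Pcna turned to -0.032 with edgeR and -0.034 with DESeq2. Without the low-count filter 932 of 15973 genes (669 higher, 263 lower) and 3 replication genes (2 higher, Rrm2 and Ccne1) were called. With all genes of the table, 666 of 16232 genes were called, no replication gene (0) was called and Mcm5 was at 0.0019. Leaving out 1 replicate gave 126 to 869 genes (112 to 602 higher, 14 to 267 lower), of which 0 to 7 were replication genes: without replicate 1 it was 7, all lower (Cdt1, Cdc6, Mcm2, Gins2, Pold1, Ccne2 and E2f1), without replicate 2 it was 7, all higher (Cdc45, Pola1, Rfc5, Rrm2, Dut, Ccne1 and Clspn), and without replicate 3 it was 0, with 2 at an unadjusted p under 0.05. Log2 fold changes then ran from -0.24 to 0.12 for Cdc6, -0.30 to 0.080 for Ccne2, -0.22 to 0.12 for E2f1, -0.020 to 0.12 for Gins1, -0.061 to 0.15 for Lig1, -0.12 to 0.083 for Mcm3, -0.10 to 0.076 for Mcm5, -0.087 to 0.13 for Pcna, -0.0084 to 0.048 for Rpa1 and -0.18 to 0.059 for Uhrf1, and the median of the list from -0.05 to 0.08. Between occasions 50 of 50 replication genes were called in every alternative that kept all 6 libraries. In the main fit 78% of all genes were called, so most genes share this trait. The median largest difference of the replication genes ran from 0.87 without acLDL-low replicate 2 to 1.08 without acLDL-high replicate 2. Beyond the effect of fewer samples or of another set of genes tested, the cause was not tested. DESeq2 with the block, its size factors and at least 10 counts in every library changed no call of a replication gene.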
